A study of Mus musculus with 12 samples.

Results

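Hearts of trained mice that had received melanoma cells were compared with hearts of trained mice that had not, gene by gene. The members are the 3 libraries labelled B16F10 cells+Exercise (melanoma trained) and the 3 labelled Exercise (trained), out of 12 heart libraries in the series. Of the 17397 genes in the table, 12511 had enough counts to be tested. All mice were male wild-type (WT) C57BL/6J animals, 8 weeks old when the groups were formed. Both groups ran on a treadmill on 5 days of each week for 4 weeks, in week 1 at speeds that went from 6 to 15 m/min and afterwards for 35 min at 12 m/min following a 5 min start at 6 m/min. From week 2 the melanoma trained mice were injected through the tail vein with 100000 cells of B16F10, a melanoma line of C57BL/6 mice that lodges mainly in the lung by this route. The sources used here do not give the tumour load of a mouse or the hour of tissue collection. A further 3 libraries, from untrained mice labelled Saline (control), entered the fit to help estimate the spread and are shown as a background. The labels do not say whether the trained mice without melanoma also received saline. Nor do they say that libraries of a group are different animals, and the p-values then cover just the spread among these libraries, which may be technical. The 3 libraries of untrained mice given B16F10 cells were left out of the main fit. They enter an alternative fit of all 12 libraries and, near the end, the test of the interaction.

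Total counts were 8843906 to 11932234 in the trained and 9504109 to 9773016 in the melanoma trained libraries. The extraction protocol names livers while the tissue label says heart. Myh6, the main cardiac myosin heavy chain, was the most abundant gene in each of the 9 libraries fitted, and Alb, the albumin gene of the liver, was at 0 counts in all 6 libraries compared. All levels below are in CPM, a gene's reads relative to the size of its library, with TMM scaling where single genes are given. The melanocyte genes Sox10, Pmel, Tyrp1, Dct and Mlana together held 5.40e-04% to 8.80e-04% of the counts in melanoma trained hearts and 6.87e-04% to 7.24e-04% in trained hearts, and Tyrp1, a pigment enzyme gene, had 0 counts in all 6. That difference of 1.03e-06 percentage points had an exact two-sided permutation p = 1 (n = 3 against 3, smallest possible p = 0.1). Trained 2 stood apart from trained 1 and 3. Its deviations from the mean of the 9 libraries increased with the GC content of the gene (r = 0.695 across 11554 genes), against r = -0.417 and -0.471 in trained 1 and 3 and -0.415 to -0.577 in the melanoma trained libraries. The log2 difference between the groups was itself related to GC content across these genes, which are not independent replicates (r = -0.551). Values without trained 2 are therefore given beside most leading genes and lists, and values with a GC correction beside some.

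The genes that stood out belong mainly to the circadian clock and to the contractile coat of blood vessels. The clock is a transcriptional loop present in most cells, cardiomyocytes included. Its activators, BMAL1 (encoded by Arntl) with CLOCK or NPAS2, bind E-boxes and drive genes of their own repressors, the PER and CRY proteins, together with the REV-ERB repressors (Nr1d1 and Nr1d2) that act back on Arntl through ROR elements. Output factors such as DBP, TEF and HLF bind D-boxes and pass the rhythm on, and many metabolic and ion channel genes of the heart cycle with them. Vascular smooth muscle cells wrap arteries and set their width. Their contractile genes are read through CArG boxes by serum response factor.

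Upstream sequences of 4 of these genes are printed because they carry the elements named above beside the largest or best separated differences in level. Each is the 250 bases before the annotated start site, 5′ to 3′ on the gene's strand, from RefSeq on build GRCm38.p6, with the matched elements in capitals: E-boxes in Ciart (chr3:95882229-95882478, minus strand) and Tef (chr15:81802423-81802672, plus strand), D-boxes in Per3 (chr4:151044666-151044915, minus strand) and a CArG box in Myl9 (chr2:156775214-156775463, plus strand).
Ciart: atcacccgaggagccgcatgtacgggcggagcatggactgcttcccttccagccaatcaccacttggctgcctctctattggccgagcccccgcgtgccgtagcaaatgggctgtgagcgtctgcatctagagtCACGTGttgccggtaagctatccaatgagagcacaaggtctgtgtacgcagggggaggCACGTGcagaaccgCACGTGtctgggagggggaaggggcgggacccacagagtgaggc
Per3: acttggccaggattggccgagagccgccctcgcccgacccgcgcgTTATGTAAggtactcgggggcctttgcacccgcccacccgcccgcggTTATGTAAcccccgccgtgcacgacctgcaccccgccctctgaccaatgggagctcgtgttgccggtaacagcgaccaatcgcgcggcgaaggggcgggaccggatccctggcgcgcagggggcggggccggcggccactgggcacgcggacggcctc
Tef: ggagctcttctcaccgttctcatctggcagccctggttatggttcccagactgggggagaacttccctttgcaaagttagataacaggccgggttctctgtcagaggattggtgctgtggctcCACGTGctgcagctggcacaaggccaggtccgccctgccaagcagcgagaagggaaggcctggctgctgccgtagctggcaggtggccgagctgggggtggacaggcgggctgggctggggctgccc
Myl9: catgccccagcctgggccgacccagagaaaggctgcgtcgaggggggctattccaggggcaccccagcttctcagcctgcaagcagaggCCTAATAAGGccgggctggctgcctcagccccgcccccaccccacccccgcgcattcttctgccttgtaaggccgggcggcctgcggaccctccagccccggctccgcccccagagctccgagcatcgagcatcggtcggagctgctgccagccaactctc
The E-box searched was CACGTG and the D-box TTATGTAA, on both strands, in windows from 250 bases before to 50 after the start. The CArG box searched was the strict form, CC, then 6 letters that are each A or T, then GG. Ciart held E-boxes at -116, -58 and -44 from its start, and Per3 held D-boxes at -205 and -158. Tef held 1 E-box in the window printed and 1 in the window of another start. Among 32817 windows of all genes, 7.1% held this E-box, 0.9% this D-box, 1.6% a CArG box and 0.4% a ROR element. Of 11 clock genes with a window, 3 held the E-box (Ciart, Tef and Per1), 1 the D-box (Per3) and 1 a ROR element (Arntl). Of 6 contractile genes 1 held a CArG box of the strict form (Myl9). Forms with 1 other letter, such as ccctatatgg and ccttgtttgg in the Acta2 window, were not counted. The CArG box and ROR element were added after the data were seen, and a match describes letters only.

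Over all genes, no difference between the groups passed the threshold, an adjusted p below 0.05 in edgeR's quasi-likelihood test. The smallest adjusted p was 0.087, shared by Spon2, Hist2h2aa2 and Tef, and 13 genes were below 0.25. In fits that also called 0 genes, the smallest was 0.0617 with GC correction and 0.257 with the replicate number as a block. It was 0.279 with the 6 compared libraries alone and 0.414 without melanoma trained 1. At an unadjusted p below 0.05 there were 885 genes, 381 higher (3.05% of those tested) and 504 lower (4.03%) in melanoma trained hearts. With GC correction these were 552 higher (4.41%) and 375 lower (3%), so the balance of directions depended on that correction. In both directions together there were 640 genes with the 6 compared libraries alone, 603 with the block and 150 in the fit of all 12 libraries. Without trained 1 there were 1417, and without trained 3 there were 1744. All 3 melanoma trained libraries lay above all 3 trained libraries for 7.78% of the genes and below them for 8.25%. DESeq2, run as an alternative, called 23 genes, 12 higher (0.0959%) and 11 lower (0.0879%). Without trained 2 edgeR called 5 of 12622 genes, 3 higher (0.0238%; Tef, Per3 and the predicted gene Gm4724) and 2 lower (0.0158%; Spon2 and Myl9). With trained 2 left out and GC corrected, the 3 higher genes (0.0238%) were called and 0 lower. Tested on simulated counts of 12431 genes, this fit found 24% of 50 genes set to change 1.5-fold, and at 2-fold it found 88%. The simulated counts were drawn independently for each gene and had no GC trend, so these shares need not hold for the real libraries. All differences below are therefore given as levels that did not pass the threshold unless said otherwise.

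Clock genes made up 9 of the 20 leading genes, the 10 in each direction with the smallest p among those with separated groups and a mean log2 CPM of at least 1. Of 24 clock genes listed, 22 were tested, 11 were higher at an unadjusted p below 0.05 and 2 lower, against 3.05% and 4.03% of all genes. The groups were separated upward for 11 of the 22 (50%) and downward for 3 (13.6%). Their median log2 difference was 0.41, against 0.0032 over all genes. It was 0.35 without trained 2 and 0.43 with GC correction. DESeq2 called 9 of the 22, and edgeR 0. The list was drawn up with earlier results of these data known, so its counts are a description. Levels of clock genes change with the hour of the day, and the hour of tissue collection is not given. The part of that hour in the differences below was not tested.

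The activators were low in melanoma trained hearts. Arntl was at 29.6, 29.5 and 24.9 CPM in trained 1, 2 and 3 and at 7.96, 15.4 and 16.0 CPM in melanoma trained 1, 2 and 3. Its log2 difference was -1.09 ± 0.23 (SE, adjusted p = 0.411; -1.05 without trained 2). Every melanoma trained library also lay below the controls, which were at 27.9 to 39.4 CPM. Npas2, a partner of BMAL1 that can stand in for CLOCK, was at 11.4, 15.7 and 10.2 CPM in trained and 4.08, 4.49 and 5.90 CPM in melanoma trained hearts. The log2 difference of Npas2 was -1.37 ± 0.22 (adjusted p = 0.139; -1.16 without trained 2), and its control libraries, at 10.0 to 13.5 CPM, overlapped the trained ones. Clock itself did not follow: it was at 49.2, 30.7 and 51.3 CPM in trained and 36.2, 46.7 and 43.1 CPM in melanoma trained hearts (log2 -0.053 ± 0.23), with groups that overlapped.

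The period genes, which encode the main repressors of the loop, were all high. Per3 was at 19.1, 9.53 and 21.7 CPM in trained and 53.4, 41.1 and 37.7 CPM in melanoma trained hearts, a log2 difference of 1.4 ± 0.25 (adjusted p = 0.219). Trained 2 was the lowest Per3 library of its group, and without it the difference was 1.11 and passed the threshold. Controls were at 10.4 to 11.5 CPM. Per2 was at 7.29, 3.54 and 7.62 CPM in trained and 17.9, 15.1 and 12.6 CPM in melanoma trained hearts (log2 1.32 ± 0.26, adjusted p = 0.294; 1.03 without trained 2). Per1, which also answers to glucocorticoids, was at 24.2, 23.1 and 38.3 CPM in trained and 38.8, 69.3 and 63.2 CPM in melanoma trained hearts (log2 1.00 ± 0.40, adjusted p = 0.618). The Per1 groups were separated by less than 1 CPM, and control libraries spread from 36.8 to 128 CPM.

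Of the other repressors, Ciart, Bhlhe40, Nr1d2 and Cry2 were high and Nr1d1 and Cry1 had overlapping groups. Ciart, which encodes a repressor that binds BMAL1, was at 2.16, 1.60 and 3.50 CPM in trained and 9.39, 8.66 and 5.80 CPM in melanoma trained hearts. Its log2 difference was 1.73 ± 0.33 (adjusted p = 0.261; 1.47 without trained 2). Bhlhe40, which encodes a repressor that competes for E-boxes, was at 38.0, 35.4 and 46.9 CPM in trained and 66.5, 59.8 and 58.5 CPM in melanoma trained hearts (log2 0.62 ± 0.11, adjusted p = 0.219; 0.54 without trained 2). Here controls were higher still, at 80.4 to 85.8 CPM, so the melanoma trained level lay between the other groups. Nr1d2 was at 83.0, 37.7 and 105 CPM in trained and 149, 142 and 146 CPM in melanoma trained hearts (log2 0.95 ± 0.29, adjusted p = 0.618; 0.63 without trained 2). The spread of Nr1d2 was thus mostly that of trained 2. Its relative Nr1d1 overlapped, with 133, 162 and 145 CPM against 207, 139 and 128 CPM (log2 0.10 ± 0.21). Cry2 was at 34.2, 32.2 and 29.1 CPM against 47.2, 41.6 and 37.4 CPM (log2 0.40 ± 0.11, adjusted p = 0.585), whereas Cry1 was at 15.4, 15.8 and 12.3 CPM against 11.4, 11.4 and 12.5 CPM (log2 -0.30 ± 0.15) with groups that overlapped. The cryptochromes are the partners of the PER proteins.

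Output genes were high without exception among the 4 described here. Tef was at 112, 105 and 128 CPM in trained and 222, 180 and 184 CPM in melanoma trained hearts, a log2 difference of 0.76 ± 0.11 (adjusted p = 0.087; 0.70 and past the threshold without trained 2). Trained and control libraries of Tef lay together, the latter at 112 to 118 CPM, and the melanoma trained libraries stood apart from both. Hlf was at 21.5, 14.7 and 19.7 CPM in trained and 38.7, 32.4 and 29.3 CPM in melanoma trained hearts (log2 0.85 ± 0.18, adjusted p = 0.411). Dbp, the output gene with the widest daily swing in many tissues, was at 20.7, 9.45 and 37.2 CPM in trained and 115.5, 50.7 and 55.2 CPM in melanoma trained hearts. The log2 difference of Dbp was 1.73 ± 0.53 (adjusted p = 0.618; 1.34 without trained 2), with the highest value in melanoma trained 1, the library with the lowest Arntl. Usp2, a ubiquitin protease gene under clock control, was at 79.9, 82.1 and 92.1 CPM in trained and 134, 137 and 110 CPM in melanoma trained hearts (log2 0.58 ± 0.11, adjusted p = 0.219). Control levels of Usp2, 108 to 121 CPM, overlapped those of the melanoma trained group. Bhlhe41, Rora, Nfil3, Csnk1e and Csnk1d, also on the clock list, had log2 differences of -0.44 to 0.42, and none of these 5 had an unadjusted p below 0.05.

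**Figure D1:**
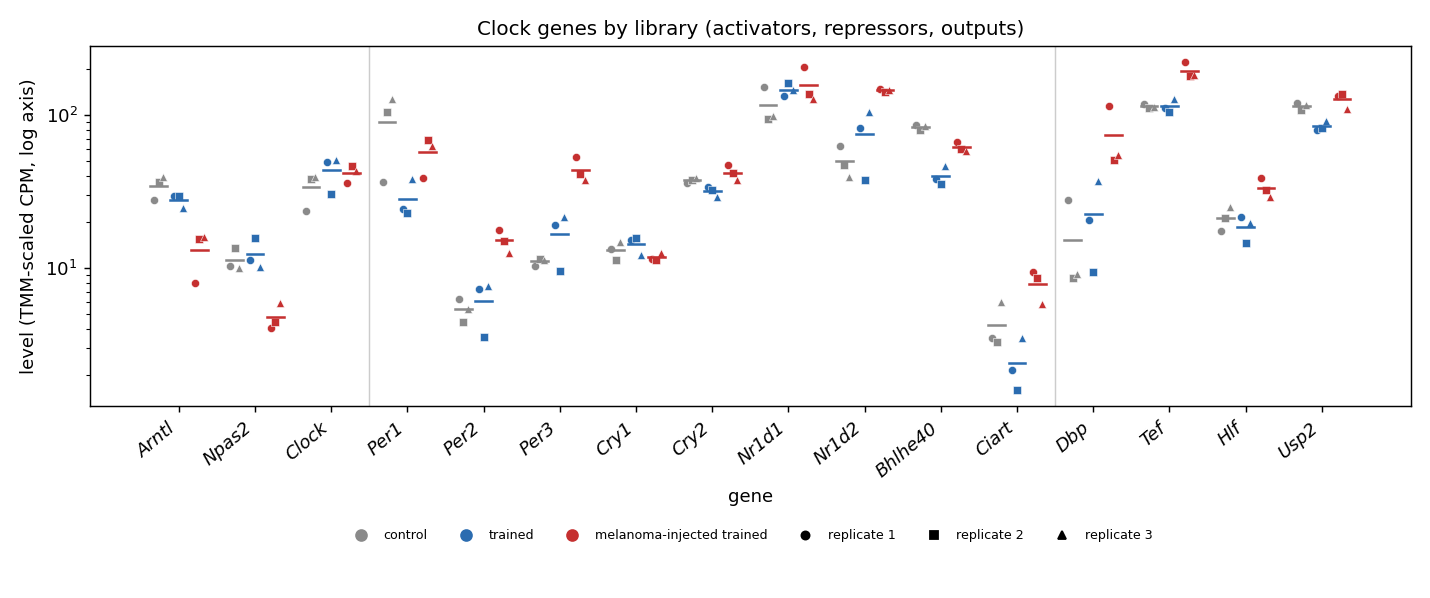
Levels of 16 clock genes (TMM-scaled CPM, log axis) in each of the 9 libraries, with activators at the left, repressors in the middle and outputs at the right. Points are libraries, marker shapes are replicate numbers and lines are group means. Melanoma trained hearts lie below both other groups for Arntl and Npas2 and above both for Per2, Per3, Tef and Hlf, while trained 2 is the lowest trained library for Per3, Nr1d2 and Dbp.

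Smooth muscle genes were low in melanoma trained hearts. All 8 markers of the smooth muscle list were tested. At an unadjusted p below 0.05 there were 6 lower and 0 higher, against 4.03% and 3.05% of all genes, 5 had separated groups, all downward (62.5%), and the median log2 difference was -0.55. That median was -0.67 without trained 2 and -0.46 with GC correction, against 0.0032 over all genes without it. DESeq2 called 2 of the 8, Tagln and Acta2.

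Among the contractile proteins, Acta2, smooth muscle alpha actin, was at 177, 112 and 156 CPM in trained and 74.5, 69.9 and 86.9 CPM in melanoma trained hearts. Its log2 difference was -0.94 ± 0.20 (adjusted p = 0.443; -1.11 without trained 2), and controls were at 97.9 to 166 CPM, above the melanoma trained group. Tagln, the actin-binding protein transgelin, was at 31.6, 32.3 and 34.9 CPM in trained and 13.5, 16.5 and 21.1 CPM in melanoma trained hearts (log2 -0.95 ± 0.17, adjusted p = 0.219; -0.97 without trained 2). Controls of Tagln, at 19.1 to 26.7 CPM, lay below the trained libraries and overlapped the melanoma trained group. Cnn1, calponin of differentiated smooth muscle, was low throughout, with 3.76, 1.94 and 3.40 CPM in trained and 0.613, 0.417 and 1.02 CPM in melanoma trained hearts. For Cnn1 the log2 difference was -2.11 ± 0.47 (adjusted p = 0.457), the largest of the list. Lmod1, a leiomodin that nucleates actin, was at 6.60, 4.56 and 4.43 CPM against 3.47, 3.23 and 3.05 CPM (log2 -0.66 ± 0.22), and Smtn, smoothelin, at 128, 132 and 130 CPM against 100.1, 105 and 117 CPM (log2 -0.27 ± 0.09). With GC correction the difference of Smtn was -0.10. The smooth muscle myosin Myh11 (log2 -0.44 ± 0.18) and its kinase Mylk (-0.21 ± 0.16) had overlapping groups, with trained 2 the lowest trained library of each. Des, which cardiomyocytes also express strongly, had a log2 difference of -0.087.

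Further contractile and matrix genes of vessels were among the leading lower genes. Myl9, the regulatory light chain of smooth muscle and nonmuscle myosin, was at 34.8, 28.8 and 31.9 CPM in trained and 18.0, 17.5 and 19.1 CPM in melanoma trained hearts. Its log2 difference was -0.80 ± 0.12 (adjusted p = 0.113; -0.87 and past the threshold without trained 2). Tpm2, beta tropomyosin, was at 22.5, 24.6 and 24.9 CPM against 15.2, 14.5 and 17.9 CPM (log2 -0.60 ± 0.12, adjusted p = 0.295). Eln, elastin of the arterial wall, was at 54.5, 58.1 and 58.9 CPM against 27.5, 33.1 and 36.8 CPM (log2 -0.82 ± 0.15, adjusted p = 0.219). In these 3 genes the libraries of each group lay close together and the groups well apart. Controls lay between the 2 groups for Myl9, at 20.8 to 26.1 CPM, and for Tpm2, at 18.7 to 21.3 CPM. For Eln they were at 40.1 to 58.6 CPM, above the melanoma trained group and into the trained range. Mcam, an adhesion molecule of mural and endothelial cells, was at 68.8, 81.0 and 66.5 CPM against 49.6, 47.0 and 56.7 CPM (log2 -0.50 ± 0.11, adjusted p = 0.455). With GC correction the log2 differences were smaller, at -0.66 (Myl9), -0.44 (Tpm2), -0.67 (Eln) and -0.35 (Mcam). With GC correction and trained 2 left out, Myl9 and Spon2 did not pass (each adjusted p = 0.0526 in edgeR's test). Spon2, a secreted matrix protein of the spondin family, had the smallest p of all genes. It was at 12.3, 13.7 and 11.9 CPM in trained and 3.27, 3.76 and 5.90 CPM in melanoma trained hearts, with controls at 11.8 to 12.8 CPM (log2 -1.55 ± 0.20, adjusted p = 0.087; -1.49 and past the threshold without trained 2).

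**Figure D2:**
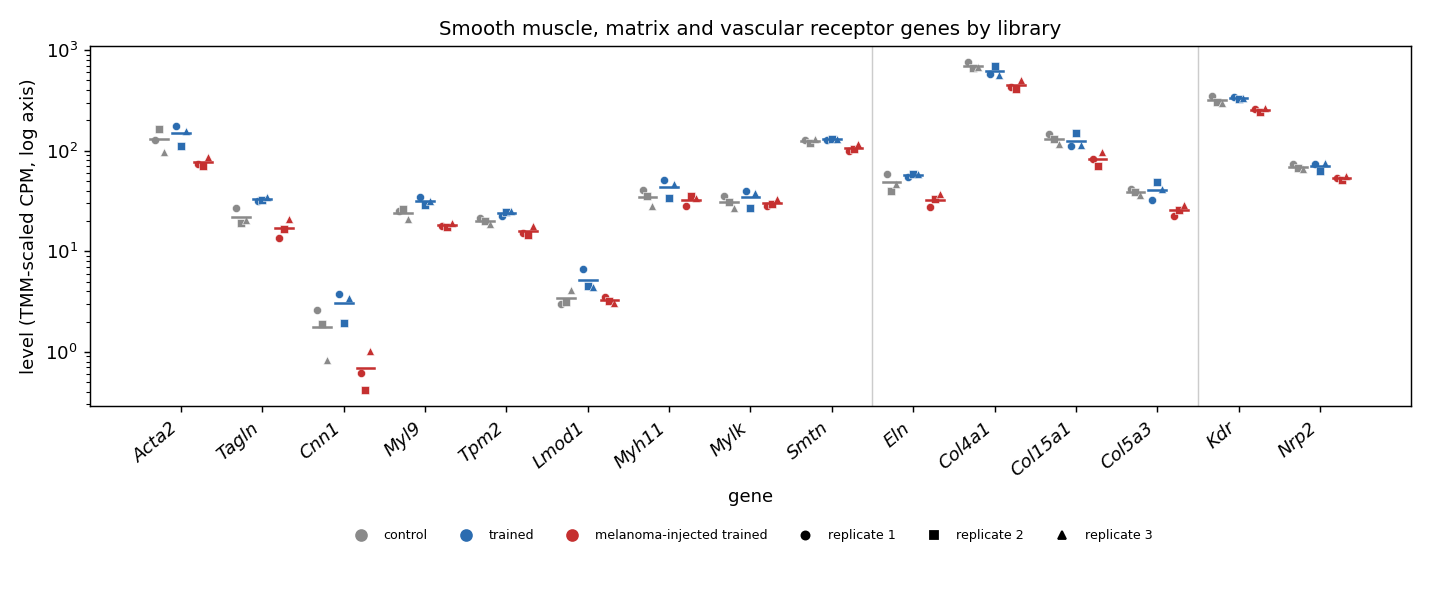
Levels of 15 smooth muscle, matrix and vascular receptor genes (TMM-scaled CPM, log axis) in each of the 9 libraries. Points are libraries, marker shapes are replicate numbers and lines are group means. Melanoma trained hearts lie below all trained libraries for Acta2, Tagln, Cnn1, Myl9, Tpm2 and Eln, while Myh11 and Mylk overlap.

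Collagens were low to a smaller extent and depended on single libraries. Of 21 collagen genes tested, 9 were lower at an unadjusted p below 0.05 and 0 higher (4.03% and 3.05% of all genes), 9 had groups separated downward (42.9%, against 8.25%), and the median log2 difference was -0.26. The median was -0.20 without trained 2 and -0.19 with GC correction, and each of those fits left 4 genes lower at an unadjusted p below 0.05. There were 5 without melanoma trained 1 and 4 without melanoma trained 2. Col4a1, a chain of the basement membrane collagen, was at 576, 700.4 and 566 CPM in trained and 425.5, 407 and 506 CPM in melanoma trained hearts (log2 -0.46 ± 0.11, adjusted p = 0.478; -0.36 without trained 2). Its partner chain Col4a2 was at 422, 528 and 392 CPM against 322.5, 322 and 385 CPM (log2 -0.38 ± 0.12; -0.25 without trained 2). Trained 2 was the highest library for both chains. Col15a1 was at 111, 151 and 113 CPM against 82.9, 70.5 and 97.5 CPM (log2 -0.58 ± 0.16, adjusted p = 0.491), and Col5a3 at 32.4, 48.8 and 41.4 CPM against 22.5, 25.5 and 28.7 CPM (log2 -0.68 ± 0.15, adjusted p = 0.457). Other matrix genes went the opposite way. The matricellular thrombospondin gene Thbs2 was at 27.8, 21.8 and 29.8 CPM against 44.8, 39.1 and 37.0 CPM (log2 0.61 ± 0.15, adjusted p = 0.478), and the protease inhibitor gene Timp3 at 220, 172 and 242 CPM against 289, 270 and 263 CPM (log2 0.38 ± 0.11; 0.25 without trained 2). The TGF-beta and matrix list as a whole had 4 genes higher and 5 lower of 39 at an unadjusted p below 0.05 (3.05% and 4.03% of all genes) and a median of -0.068. Without trained 2 these were 3 higher and 2 lower.

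Receptors and ligands of blood vessel growth had 7 genes lower and 1 higher of 25 at an unadjusted p below 0.05 (4.03% and 3.05% of all genes), with a median of -0.22. The number lower was 4 without trained 2 and 3 without melanoma trained 2. With GC correction the median was -0.06, with 2 lower and 2 higher. Kdr, the main receptor of vascular endothelial growth factor, was at 341, 323 and 336 CPM in trained and 258, 242 and 266 CPM in melanoma trained hearts (log2 -0.38 ± 0.084, adjusted p = 0.455; -0.41 without trained 2). Its co-receptor Nrp2 was at 73.1, 62.9 and 76.2 CPM against 53.9, 51.4 and 55.5 CPM (log2 -0.40 ± 0.10, adjusted p = 0.478). For both receptors the groups were separated and the GC correction left the differences at -0.43 and -0.38. Flt4, the receptor of lymphatic endothelium, was at 30.1, 33.8 and 33.6 CPM against 27.1, 24.7 and 24.5 CPM (log2 -0.35 ± 0.11). Angpt1, a ligand that mural cells send to the endothelium, was the member that was higher, at 25.3, 11.6 and 16.6 CPM against 31.9, 37.4 and 25.3 CPM (log2 0.84 ± 0.29, adjusted p = 0.618).

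Markers of the neighbouring cell types were read beside these genes, since in bulk tissue fewer cells of a type and less RNA per cell cannot be told apart. The smooth muscle markers other than Des summed to 342 to 435 CPM in trained, 253 to 298 CPM in melanoma trained and 299 to 373 CPM in control hearts. Pericyte markers summed to 1065 to 1574 CPM in trained and 1525 to 1542 CPM in melanoma trained hearts, so their range in trained hearts enclosed that in melanoma trained hearts. Of the 8 pericyte markers, 4 were lower with separated groups (50%, against 8.25% of all genes), Kcnj8, Vtn, Pdgfrb and Notch3, with log2 differences of -0.28, -0.36, -0.28 and -0.21 that became -0.21, -0.21, -0.15 and -0.031 with GC correction. Endothelial markers summed to 2066 to 2308 CPM and 2084 to 2116 CPM, and fibroblast markers to 2334 to 2574 CPM and 2536 to 2695 CPM, with overlap in each case. None of the markers of these 3 lists was at 0 in any library. The part of cell numbers in the vascular differences was not tested.

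Among the other leading genes, Lonrf1, a ring finger protein gene, was at 6.49, 5.57 and 6.69 CPM in trained and 11, 11.4 and 12.7 CPM in melanoma trained hearts (log2 0.91 ± 0.15, adjusted p = 0.184). Coq10b, which encodes a coenzyme Q binding protein of mitochondria, was at 24.6, 16.1 and 31.5 CPM against 40.5, 53.8 and 43.4 CPM (log2 0.94 ± 0.21, adjusted p = 0.457; 0.71 without trained 2). Pirb, an inhibitory receptor gene of myeloid cells, was at 5.35, 4.30 and 4.02 CPM against 9.60, 7.41 and 8.55 CPM (log2 0.91 ± 0.20, adjusted p = 0.457). The groups were separated in all 3, and the control libraries of Pirb, at 5.18 to 7.83 CPM, reached into the melanoma trained range. Trp53i11, a p53-inducible gene, was at 63.7, 63.5 and 62.3 CPM against 35.5, 36.6 and 42.7 CPM (log2 -0.72 ± 0.14, adjusted p = 0.294), and controls were at 68.1 to 102 CPM. With GC correction the difference of Trp53i11 was -0.56.

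Among cardiac load genes, Myh7 was high and Nppb low in melanoma trained hearts. Myh7, the slow myosin heavy chain that rodent hearts raise under load, was at 85.3, 127 and 122 CPM in trained and 207, 222 and 163 CPM in melanoma trained hearts. Its log2 difference was 0.82 ± 0.21 (adjusted p = 0.478; 0.93 without trained 2), and controls, at 96.9 to 172 CPM, overlapped both groups. Nppb, which encodes B-type natriuretic peptide, usually raised by the same load, was at 290, 396 and 465 CPM in trained and 218, 226 and 215 CPM in melanoma trained hearts (log2 -0.81 ± 0.23, adjusted p = 0.618). The 3 melanoma trained libraries of Nppb lay close together and below all 6 other libraries, since controls were at 256 to 505 CPM. Rcan1, a calcineurin feedback gene, was at 127, 154 and 109 CPM against 106, 93.4 and 104 CPM (log2 -0.36 ± 0.14, adjusted p = 0.618). The atrial peptide gene Nppa was at 216, 281 and 259 CPM against 154, 145 and 261 CPM (log2 -0.43 ± 0.21), with overlap from melanoma trained 3. Of the 17 load genes tested, 2 were higher and 2 lower at an unadjusted p below 0.05, against 3.05% and 4.03% of all genes.

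The remaining genes of the cardiac panel did not separate the groups clearly. Myh6 was at 34300.0, 36270.0 and 32230.0 CPM in trained and 31110.0, 32170.0 and 33920.0 CPM in melanoma trained hearts, with overlap (log2 -0.081 ± 0.074). The calcium pump gene Atp2a2 had a log2 difference of 0.10 ± 0.091, the atrophy ligase genes Trim63 and Fbxo32 differences of -0.17 ± 0.13 and 0.12 ± 0.12, and the stretch gene Ankrd1 one of 0.23 ± 0.27. Pln, the inhibitor of the calcium pump, was at 7271, 4303 and 7348 CPM in trained and 7597, 8192 and 7783 CPM in melanoma trained hearts (log2 0.32 ± 0.17). Without trained 2, the lowest Pln library, the difference was 0.11.

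Several acute phase genes were at higher levels in melanoma trained hearts, and how many depended on melanoma trained 1. Of 17 tested members of the acute phase and IL-6/STAT3 list, 5 were higher and 0 lower at an unadjusted p below 0.05 (3.05% and 4.03% of all genes), or 2 higher without melanoma trained 1. Groups were separated upward for 6 (35.3%, against 7.78% of all genes), and the median was 0.25 (0.13 without trained 2). C4b, a complement component, was at 15.6, 13.4 and 16.1 CPM in trained and 31.3, 17.1 and 29.4 CPM in melanoma trained hearts (log2 0.79 ± 0.20, adjusted p = 0.478). C3, the central complement protein, was at 153, 154 and 171 CPM against 297, 172 and 207 CPM (log2 0.50 ± 0.17, adjusted p = 0.618). Melanoma trained 2 was the lowest library of its group in both genes and only just above trained hearts for C3. Socs3, the feedback inhibitor of STAT3 signalling, was at 5.01, 4.73 and 4.74 CPM against 10.7, 6.15 and 5.80 CPM (log2 0.65 ± 0.25, adjusted p = 0.618), a difference carried mainly by melanoma trained 1. Neutrophil markers were near the floor, where 1 to 4 of the 10 were at 0 in a melanoma trained library, 2 to 4 in a trained library, and 3 counts are 0.251 to 0.339 CPM. S100a9 was at 1.02, 0.422 and 0.412 CPM against 1.74, 2.71 and 2.14 CPM (log2 1.85 ± 0.45, adjusted p = 0.478), and the summed neutrophil markers were at 3.97 to 5.20 CPM in trained, 8.12 to 8.31 CPM in melanoma trained and 3.98 to 21.2 CPM in control hearts. Epicardial and mesothelial markers summed to 37.39, 8.10 and 15.25 CPM in melanoma trained 1, 2 and 3. Their sums were 10.85 to 13.49 CPM in trained and 12.91 to 18.86 CPM in control hearts. The part of these cell types in the acute phase values was not tested.

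**Figure D3:**
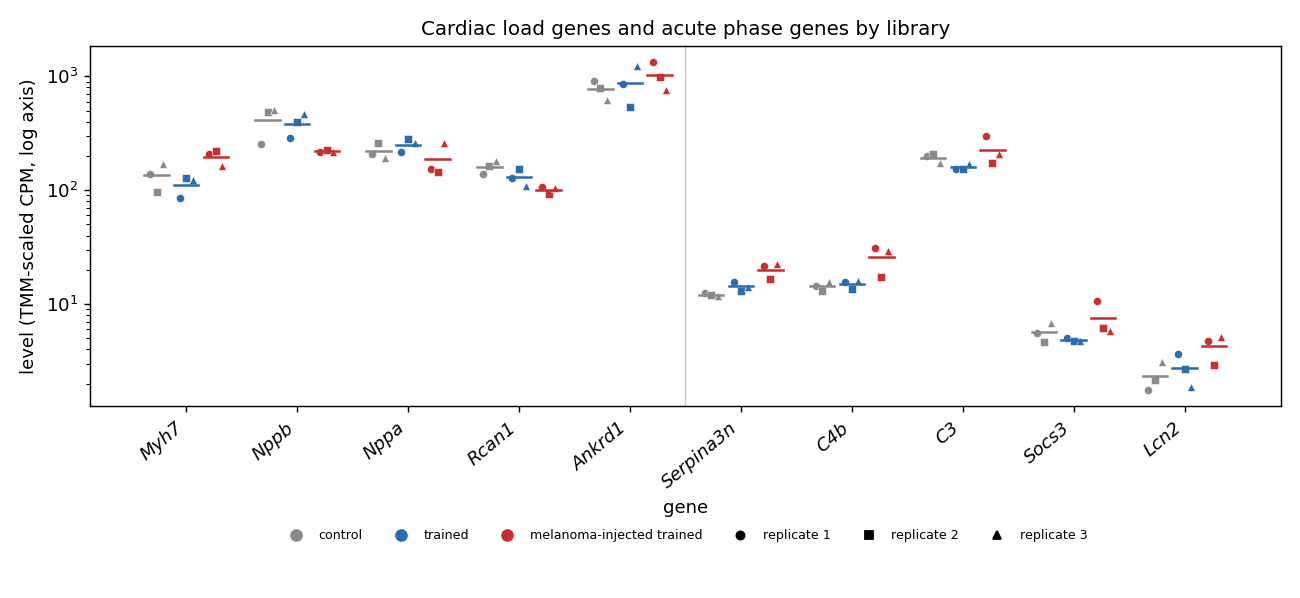
Levels of 5 cardiac load genes (left) and 5 acute phase genes (right) in each of the 9 libraries (TMM-scaled CPM, log axis). Points are libraries, marker shapes are replicate numbers and lines are group means. Myh7 is higher and Nppb lower in all 3 melanoma trained libraries than in any trained library, and C4b, C3 and Serpina3n lie above the trained libraries by margins that differ between replicates.

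Among the stress genes of the panel, Hmox1, Fkbp5 and Mt1 were near trained levels, while Mt2, Serpina3n and Lcn2 had higher means. Hmox1, the haem-degrading enzyme, was at 10.8, 11.6 and 10.8 CPM in trained and 12.3, 10.3 and 10.2 CPM in melanoma trained hearts (log2 -0.024 ± 0.14). Fkbp5, a glucocorticoid-induced chaperone gene, was at 14.3, 16.4 and 14.3 CPM against 13.6, 19.8 and 11.9 CPM (log2 0.0055 ± 0.18), and the metallothionein gene Mt1 at 154, 170 and 168 CPM against 160, 162 and 178 CPM (log2 0.019 ± 0.093). The groups overlapped in all 3. Mt2, the neighbouring metallothionein gene, was at 12.9, 16.8 and 18.6 CPM against 28.2, 20.6 and 25.3 CPM (log2 0.61 ± 0.16, adjusted p = 0.478), and the acute phase gene Serpina3n at 15.7, 12.9 and 14.2 CPM against 21.4, 16.5 and 22.4 CPM (log2 0.50 ± 0.14, adjusted p = 0.618). These were the panel genes with separated groups, and both were higher. Lcn2, an iron-trapping protein gene, was at 3.64, 2.70 and 1.85 CPM against 4.70, 2.92 and 5.09 CPM (log2 0.64 ± 0.31) with overlap.

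Of the metabolic and cell cycle members of the panel, Angptl4 and Pdk4 varied widely between trained libraries. Angptl4, an inhibitor of lipoprotein lipase that fasting and fatty acids raise, was at 48.7, 71.3 and 16.0 CPM in trained and 18.7, 8.87 and 12.6 CPM in melanoma trained hearts (log2 -1.76 ± 0.46, adjusted p = 0.478; -1.26 without trained 2). Trained 3 overlapped the melanoma trained group, which lay close to the controls at 7.59 to 14.5 CPM. Pdk4, a brake on glucose oxidation, was at 1346, 1095 and 549 CPM against 404, 857 and 494 CPM (log2 -0.77 ± 0.39). Cdkn1a, a cell cycle inhibitor, was at 34.0, 49.3 and 49.6 CPM against 13.8, 32.5 and 35.6 CPM (log2 -0.70 ± 0.36). Plin2, a lipid droplet coat gene, was at 69.2, 69.8 and 54.4 CPM against 60.4, 56.4 and 63.2 CPM (log2 -0.10 ± 0.11). All 4 overlapped between the groups.

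Whether the melanoma difference in trained mice differed from that in untrained mice was asked for these 10 panel genes in a fit of all 12 libraries. The panel was chosen because untrained melanoma-injected hearts were known to differ in it. That difference is a term of the interaction, so a negative sign follows from the choice for any panel gene without an equal difference in trained mice, and the values are a description. In edgeR's fit the interaction passed the threshold for 3 of 12778 genes (0.0235%), Hmox1, Mt2 and Fkbp5. The number over all genes depended on the tool and on the untrained melanoma-injected libraries: DESeq2 called 269, edgeR 32 without melanoma 1 and 2, 6 without melanoma 1, 4 without melanoma 2 and 4002 without melanoma 3. For Hmox1 the melanoma trained minus trained difference was -0.020 ± 0.22 on the log2 scale and the melanoma minus control difference 3.61 ± 0.23, an interaction of -3.63 ± 0.32 (adjusted p = 8.19e-04). For Mt2 they were 0.62 ± 0.17 and 3.93 ± 0.18, an interaction of -3.31 ± 0.24 (adjusted p = 2.05e-04). For Fkbp5 they were 0.011 ± 0.19 and 2.21 ± 0.19, an interaction of -2.20 ± 0.27 (adjusted p = 0.016). On the scale of that fit, Hmox1 was at 10.5 to 12.7 CPM in melanoma trained, 11.2 to 12 CPM in trained and 116 to 231 CPM in untrained melanoma-injected hearts. Mt2 was at 21.2 to 29.1 CPM in melanoma trained hearts, above the 13.3 to 19.3 CPM of trained hearts, and at 218 to 248.6 CPM in untrained melanoma-injected hearts. Fkbp5 was at 12.3 to 20.5 CPM in melanoma trained, 14.8 to 16.8 CPM in trained and 70.2 to 89.5 CPM in untrained melanoma-injected hearts. The call of Fkbp5 was lost when any 1 control or trained library, or melanoma trained 1 or 3, was left out (adjusted p = 0.0675 to 0.154), and with the replicate number as a block (adjusted p = 0.0996). The interaction of the 7 other panel genes was -4.19 (Angptl4, adjusted p = 0.175) to -1.06 (Plin2, adjusted p = 0.286) and did not pass. In the untrained melanoma-injected libraries 1 and 2 the melanocyte genes held 1.08% and 0.496% of counts. Without these libraries, so with melanoma 3 alone in its group and assumed to vary like the others, 7 panel genes passed, with -4.07 for Hmox1, -3.36 for Mt2 and -2.36 for Fkbp5.

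**Figure D4:**
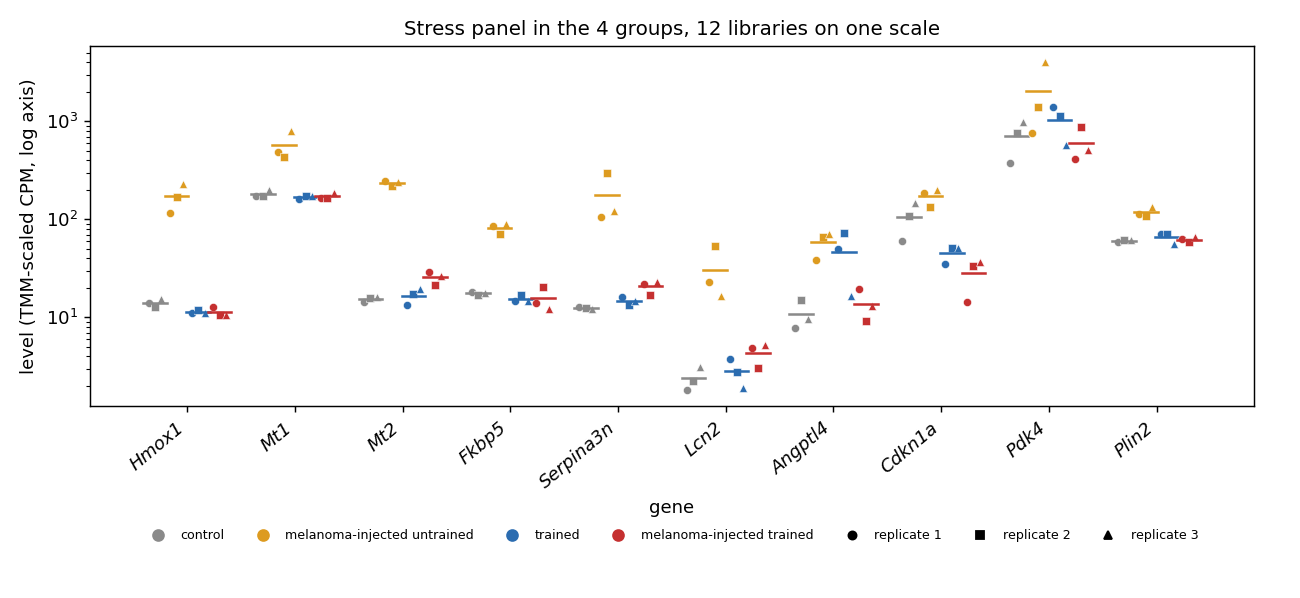
Levels of the 10 stress panel genes in all 12 libraries on 1 scale (TMM-scaled CPM, log axis), for control, untrained melanoma-injected, trained and melanoma-injected trained hearts. Points are libraries, marker shapes are replicate numbers and lines are group means. For Hmox1, Mt2 and Fkbp5 the untrained melanoma-injected libraries are far above all others, with 116 CPM as the lowest Hmox1 value of that group.

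Of 23 glucocorticoid response genes tested, 5 were higher and 1 lower at an unadjusted p below 0.05 (3.05% and 4.03% of all genes), with a median of 0.21. It was 0.14 without trained 2. With GC correction 10 were higher (4.41% of all genes) and 0 lower, and 3 were higher without melanoma trained 2 or without melanoma trained 3. Tsc22d3, which encodes the anti-inflammatory protein GILZ, was at 59.4, 61.9 and 82.0 CPM in trained and 72.1, 102 and 106 CPM in melanoma trained hearts (log2 0.46 ± 0.16, adjusted p = 0.618). Pik3r1, a regulatory subunit of PI3 kinase, was at 93.7, 54.3 and 87.3 CPM against 107, 113 and 107.5 CPM (log2 0.48 ± 0.17; 0.27 without trained 2). Per1 and Mt2, given above, and Hif3a, a hypoxia factor gene were the others. The list therefore shares members with the clock and metallothionein lists.

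Immediate early genes, the quickest to respond when a cell is stimulated, had a median of 0.28 over 26 genes, with 2 higher and 0 lower at an unadjusted p below 0.05 (3.05% and 4.03% of all genes), and varied widely within groups. The count higher was 9 without control 1 and 9 with the 6 compared libraries alone, 4 without melanoma trained 3, and 1 without control 3, trained 1, trained 2 or melanoma trained 2. Nr4a1, an orphan nuclear receptor gene, was at 12.0, 20.6 and 58.4 CPM in trained and 48.3, 261 and 61.4 CPM in melanoma trained hearts (log2 2.03 ± 1.04, adjusted p = 0.618). Nr4a2 was at 1.59, 1.18 and 1.65 CPM against 2.76, 15.1 and 2.65 CPM (log2 2.22 ± 0.97), and Fos, an AP-1 subunit gene, at 6.37, 9.03 and 12.6 CPM against 31.8, 47.9 and 9.46 CPM (log2 1.67 ± 0.86). Melanoma trained 2 was the highest of the 6 compared libraries in all 3. Controls were more variable still, with Nr4a1 at 16.8, 581 and 538 CPM in control 1, 2 and 3.

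Interferon and antigen presentation genes were slightly low. Of 42 tested, 6 were lower and 0 higher at an unadjusted p below 0.05 (4.03% and 3.05% of all genes), with a median of -0.14 (-0.18 without trained 2, -0.12 with GC correction). The number lower was 3 without trained 3 or melanoma trained 3, 2 without melanoma trained 2 and 3 with GC correction. Stat2, a subunit of the interferon-activated transcription factor, was at 24.6, 23.4 and 22.6 CPM in trained and 20.8, 18.0 and 16.0 CPM in melanoma trained hearts (log2 -0.36 ± 0.12, adjusted p = 0.618). H2-K1, a class I antigen-presenting molecule, was at 179, 191 and 186 CPM against 153, 142 and 149 CPM (log2 -0.33 ± 0.11). Both had separated groups. Bst2, tetherin, was at 19.6, 25.7 and 23.4 CPM against 20.3, 15.1 and 17.0 CPM (log2 -0.39 ± 0.14) and overlapped.

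Energy metabolism lists showed small differences, most of them smaller with GC correction. Of 78 nuclear-encoded oxidative phosphorylation genes, 27 (34.6%, against 8.25% of all genes) lay below the trained libraries in every melanoma trained library, 9 were lower at an unadjusted p below 0.05 (4.03% of all genes), and the median was -0.11. The count of 9 was 16 without trained 1, 2 without trained 2, 17 without trained 3, 5, 0 and 2 without melanoma trained 1, 2 and 3, and 2 with the replicate number as a block. The count lower over all genes, given above, moved the same way in each of these fits. The median was -0.055 with GC correction and -0.056 without trained 2. The respiratory chain genes Cox6a1, Ndufs8 and Ndufv3 had log2 differences of -0.33 ± 0.12, -0.27 ± 0.10 and -0.24 ± 0.094 (each adjusted p = 0.618), which became -0.13, -0.11 and -0.14 with GC correction. Trained 2 was the highest trained library in each of them, with Cox6a1 at 81.5, 104 and 80.6 CPM in trained and 69.6, 67.4 and 75.4 CPM in melanoma trained hearts. The glycolytic genes Gapdh, Pkm and Gpi1 were similar, at -0.27, -0.24 and -0.23 and, with GC correction, at -0.12, -0.12 and -0.093. In the other direction, the lipid uptake gene Lpl was at 6341, 3453 and 6587 CPM against 6776, 8029 and 7434 CPM (log2 0.44 ± 0.21; 0.20 without trained 2). Of 39 fatty acid genes, 0 had an unadjusted p below 0.05 in either direction, and the beta-oxidation genes Decr1 and Acadm had log2 differences of 0.20 and 0.28. Without trained 2 the differences of Decr1 and Acadm were 0.10 and 0.12.

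Across the gene lists with at least 5 tested members, the clock list had the highest median and the smooth muscle list the lowest. The dendritic and mast cell list, with 5 members tested, was close to the smooth muscle list, at -0.54 against -0.55. The cardiomyocyte marker list had a median of -0.11, or 0.021 with GC correction. Its markers summed to 129700 to 136100 CPM in trained, 122100 to 126800 CPM in melanoma trained and 124700 to 132300 CPM in control hearts. Actc1, the cardiac alpha actin gene, was at 17990, 17460 and 15190 CPM in trained and 12890, 10520 and 13460 CPM in melanoma trained hearts. The log2 difference of Actc1 was -0.46 ± 0.10 (adjusted p = 0.457 in edgeR's test), with separated groups. The macrophage list had a median of 0.095. Erythrocyte genes, which varied from 1758 to 3605 summed CPM in trained and from 1122 to 3366 CPM in melanoma trained hearts, had a median of 0.0070.

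**Figure D5:**
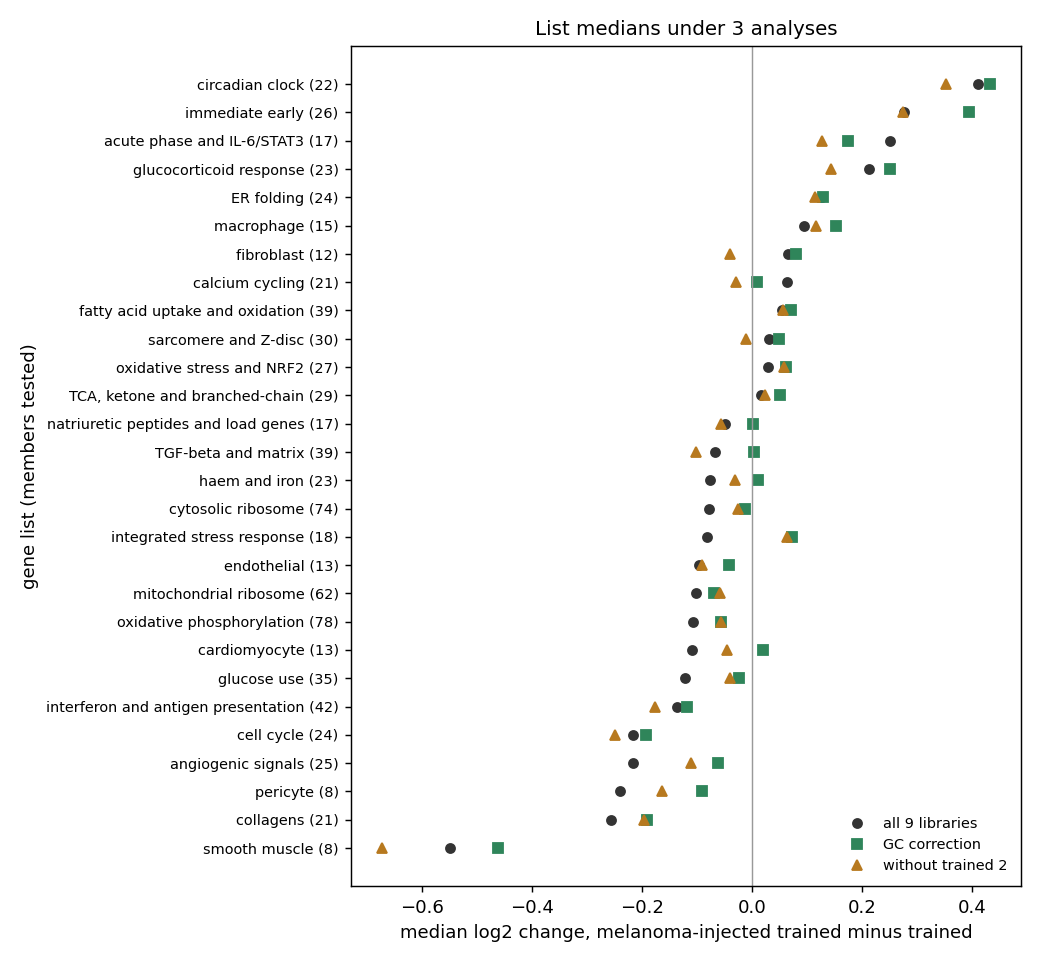
Median log2 difference (melanoma trained minus trained) of 28 gene lists, with the number of members tested in parentheses, in the fit of all 9 libraries, with GC correction, and without trained 2. The clock list lies at 0.35 to 0.43 and the smooth muscle list at -0.67 to -0.46 in the 3 analyses, while the angiogenic, cardiomyocyte and oxidative phosphorylation lists move toward or past 0 with GC correction.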

How the data were processed

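Heart RNA of 12 libraries was measured by RNA-seq. Libraries were made with a Vazyme VAHTS kit for MGI sequencing after Trizol extraction, per the labels' protocols. The deposited values are estimated counts per gene that need not be whole numbers; HISAT2 2.2.1 and featureCounts, with both GRCm39 and mm10 as builds, are named without their roles per the submitters' processing notes. Strand setting is not given in the sources used here. Counts were rounded. Genes passing edgeR's filterByExpr were fitted with edgeR 4.0.16 (R 4.3.3, TMM, quasi-likelihood) over the 9 control, trained and melanoma trained libraries, with Benjamini-Hochberg adjustment and a threshold of 0.05. DESeq2 1.42.0, the 6 compared libraries alone, all 12 libraries, filters, library size alone, a replicate block, a loess GC offset and leaving out each library were among the alternatives. A log2 difference is melanoma trained minus trained, ± SE.

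At these depths 3 counts equal 0.251 to 0.339 CPM. The SE of a log2 difference comes from the quasi-likelihood fit and includes the spread between libraries. Replicates differed by more than sampling noise, so none were merged. The genes named are the 10 leading in each direction, up to 3 per list by p, and panels of 10 stress and 9 cardiac genes; other clock, smooth muscle, vascular and neutrophil genes were named after their values were seen. Members and lists were chosen with earlier results of these data known. The code was tested on simulated data, with 6 false calls. Values of 1 gene of the clock list are not reported here.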

Additional observations from a re-analysis of the deposited data

Results flagged for a closer look

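By edgeR's test of the interaction over 12 libraries with n = 3 per group, the difference with melanoma injection was not the same in trained and untrained mice for Hmox1, Mt2 and Fkbp5, with values of -3.627, -3.313 and -2.203 on the log2 scale. These genes are of a panel chosen for its difference in untrained mice, so their negative sign follows from the choice. Over all genes 3 were called, against 269 by DESeq2 and 4002 by edgeR without melanoma 3. Fkbp5 was not called with the replicate block (adjusted p = 0.0996) or in 8 of the 12 fits that left out 1 library. Groups of 3 are too small for the check of single samples far from the others.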

How the results depend on the processing

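No gene was called in the comparison of the report; DESeq2 called 23, no filter on low counts 4, and trained 2 left out with GC correction 3, and leaving out 1 library gave 0 to 5. The cause was not tested. Of the panel genes in the interaction 3 were called, 8 by DESeq2, 5 with library size alone, 7 with melanoma 1 and 2 left out, and 2 to 8 with 1 library left out. The melanocyte share differed by -3.94e-06 percentage points with TMM-scaled library size and by -8.83e-05 to 8.16e-05 with 1 library left out. Over 22 alternatives, 89 genes gave 1952 values, of which 30, in 9 genes, had the opposite sign. With GC correction Myh6 was at 0.06216, Atp2a2 at -0.01093, Fbxo32 at -0.01278 and Hmox1 at 0.08447. With trained 2 left out and GC correction Ankrd1 was at -0.04467, Fbxo32 at -0.00458 and Hmox1 at 0.02864. Fkbp5 was at -0.001333 without a filter and -0.0006754 with a stricter one. With 1 library left out, Clock ranged from -0.2562 to 0.07941, Nr1d1 from -0.1396 to 0.2312, Ankrd1 from -0.02423 to 0.5501, Hmox1 from -0.1155 to 0.02365, Mt1 from -0.03258 to 0.04748 and Fkbp5 from -0.2386 to 0.1501.

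Same-numbered trained and melanoma trained libraries did not deviate together (r = -0.162, -0.128 and 0.0567). The sources used here do not say whether the numbers pair samples. These values cannot decide it, as the groups are small and trained 2 has its own GC trend. With the replicate block 0 genes were called, Fkbp5 was at -0.006249 and 2 panel genes were called. With the replicate block and GC correction Myh6 was at 0.06416, Atp2a2 at -0.006683, Fbxo32 at -0.01618 and Hmox1 at 0.07864.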

Other observations

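Among single genes outside the naming rule, chosen after their values were seen, Hist2h2aa2, a replication-type histone H2A gene, had 0 counts in all 3 trained libraries. It had 21, 24 and 12 counts in melanoma trained 1, 2 and 3, and 16, 11 and 14 counts in control 1, 2 and 3. The melanoma trained mean of 1.97 CPM was at least 6.53-fold higher than 3 counts per trained library. Hist2h2aa1 is a near-identical copy, so the value of either gene is uncertain. Gm4724, a predicted gene, had 15, 29 and 6 counts in trained and 69, 93 and 89 counts in melanoma trained hearts, with 7, 16 and 8 counts in controls.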
